A study of Mus musculus with 6 samples.

Results

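RNA of 8 members of the claudin family was followed in whole eyeballs of newborn mice: Cldn1, Cldn3, Cldn4, Cldn5, Cldn7, Cldn8, Cldn10 and Cldn11. They were taken from 12393 genes that the arrays measured with at least 1 probe set naming a single gene, among which 19 claudin genes were found. A probe set is the group of short array probes that reads 1 transcript, and 14 probe sets named the 8 members. Each member was represented by its probe set with the highest mean over all 6 arrays, so the probe sets were chosen by that mean and not by the difference between genotypes. The 8 genes themselves were selected by name, with earlier results of these arrays known, and Cldn1 and Cldn3 are the members with several probe sets, whose next brightest had means of 4.18 and 6.30 against 8.56 and 6.60 for those chosen (log2). The 3 mutant eyeballs, called Brg1 cKO, came from pups at postnatal day 1 in which both Brg1 alleles were floxed and 1 copy of the Le-Cre transgene was carried, and the 3 reference eyeballs came from pups of the same age labelled wild type. All pups were of mixed background, each array held RNA of an individual eyeball, and by the study's methods the wild-type pups were stage-matched littermates. Le-Cre is active in surface ectoderm of the head, from which lens, corneal epithelium and eyelid epidermis derive, while the retina, vessels and muscle of the eyeball do not come from these cells. The study states that its controls carried floxed Brg1 without naming these arrays, and it described deletion as incomplete in many mutants. It reports that Le-Cre mice looked like wild type, but none of these arrays came from mice with Le-Cre alone. Effects of the transgene and of Brg1 loss on RNA therefore cannot be told apart here.

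Claudins are small proteins that cross the plasma membrane several times and join into the strands of tight junctions, where neighbouring epithelial or endothelial cells seal the space between them. Some claudins make this seal tight, and others form pores in it that select for small cations or anions, so that the set of claudins in a cell layer largely fixes its permeability. In the eye, such layers are the epithelium of the cornea and conjunctiva, the retinal pigment epithelium and the endothelium of retinal vessels. Brg1 is the product of Smarca4 and burns ATP to move nucleosomes within SWI/SNF complexes. The comparison asks which transcripts of the eye differ when it is deleted in the surface ectoderm.

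The arrays had median intensities of 180.03 to 185.5 in Brg1 cKO and 169.1 to 184.6 in wild-type eyeballs, and precision is limited by having 3 arrays a group. Brg1 cKO replicate 2 stood apart from the other arrays, with a score of 75.2 on the first principal component against 19.3 and 11.9 in the other mutants and -44.4 to -28.8 in wild-type eyeballs. Brg1 cKO replicate 1 was from a male pup and the other 5 from females, since Xist, the RNA that silences an X chromosome in females, was at log2 4.88 there and at 12.3 to 12.92 elsewhere. Of 8 measured lens fiber markers and 8 neural retina markers, 0 were near the low end of the scale in all arrays. Each marker thus rose above it in some array, mutant or wild type. The count does not show that each mutant eyeball held both tissues. Smarca4 did not differ past the test, with differences of 0.18 (SE 0.19, limma adjusted p = 0.866) and -0.70 (SE 0.30, adjusted p = 0.598) on its 2 probe sets. No source read for this text places them inside or outside the floxed exons.

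The start regions of Cldn3, Cldn4 and Cldn7 are printed here because they hold the E-box described after them, and Cldn3 and Cldn4 lie on the same chromosome. They are RefSeq windows of build GRCm38.p6, from 250 bases before to 50 bases after an annotated start, given 5′ to 3′ on the strand of the gene. Windows were given for 7 of the 8 members, 9 in all, with more than 1 start for Cldn7 and Cldn10. For Cldn7 the second window is shown, since the first held no match. Capitals mark matches to 6 short motifs searched on both strands, so that a match on the other strand appears as its reverse complement.
Cldn3, chr5:134985964-134986263, plus strand: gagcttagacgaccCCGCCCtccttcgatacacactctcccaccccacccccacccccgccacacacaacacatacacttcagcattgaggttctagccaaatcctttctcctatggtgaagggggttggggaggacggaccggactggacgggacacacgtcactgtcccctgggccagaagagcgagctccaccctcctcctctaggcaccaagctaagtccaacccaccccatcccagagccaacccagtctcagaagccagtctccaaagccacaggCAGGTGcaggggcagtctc
Cldn4, chr5:134946885-134947184, minus strand: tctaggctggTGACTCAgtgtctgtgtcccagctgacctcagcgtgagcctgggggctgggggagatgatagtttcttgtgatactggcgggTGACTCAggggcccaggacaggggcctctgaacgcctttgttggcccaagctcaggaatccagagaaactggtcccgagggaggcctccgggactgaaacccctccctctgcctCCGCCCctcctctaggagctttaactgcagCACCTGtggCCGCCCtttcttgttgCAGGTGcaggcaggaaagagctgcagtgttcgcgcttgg
Cldn7, chr11:69965171-69965470, plus strand: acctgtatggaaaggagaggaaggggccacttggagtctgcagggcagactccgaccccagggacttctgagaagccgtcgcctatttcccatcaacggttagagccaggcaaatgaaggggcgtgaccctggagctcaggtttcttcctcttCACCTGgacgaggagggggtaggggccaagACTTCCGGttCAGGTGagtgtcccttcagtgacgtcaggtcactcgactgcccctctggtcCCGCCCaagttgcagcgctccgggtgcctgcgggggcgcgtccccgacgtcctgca

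The E-box CACCTG, the letters that Snail and ZEB repressors of epithelial genes are known to bind, was found in 3 of the 9 windows, and these were the windows printed. It is present in 20.2% of all 32851 windows of this length. In Cldn3 the match began 32 bases after the start, in Cldn4 at -14 and 12, and in Cldn7 at -97 and -57, counted from the start site as 1. The GC box GGGCGG stood in 7 of 9 windows against 35.7% of all, and the AP-1 motif TGANTCA in 1 of 9, that of Cldn4 at -240 and -158, against 7.81% of all. The ETS motif CCGGAAGT was matched in 1 of 9 windows, that of Cldn7 at -67, against 3.89% of all. The TATA box TATAAA and the Grainyhead motif AACCGGTT were matched in 0 of 9 windows, against 13.6% and 0.146% of all. No matches overlapped within the 3 printed windows. The member windows ranged from 36% to 72% G and C with 4 to 27 CpG dinucleotides, beside medians of 52.67% and 7 over all windows. A match is a run of letters, and no binding was measured.

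Of the 8 claudins, Cldn8 alone passed the test and was lower in Brg1 cKO eyeballs, while Cldn7, Cldn10 and Cldn3 had lower values in all mutant than in all wild-type arrays without passing it. Cldn11 had higher values in all mutant arrays, also without passing the test, and Cldn1, Cldn4 and Cldn5 overlapped between genotypes. The test was limma on log2 intensities across all 22626 probe sets with genotype as the only term, with Benjamini-Hochberg adjusted p under 0.05 as the threshold. By this rule 0.508% of all probe sets were called, 0.203% as lower and 0.305% as higher in Brg1 cKO. Groups that did not overlap, with the mutants below, were found for 4 of the 8 claudins and 6.44% of all probe sets, and with the mutants above for 1 claudin and 7.31% of all probe sets (13.7% in either direction). At an unadjusted p under 0.05 there were 4 lower and 1 higher claudins, beside 3.87% and 4.53% of all probe sets (8.4% in either direction). Template matching at p under 0.05 with a fold over 1.5 and no adjustment, as computed here after the rule in the study's methods, called 4 claudins (Cldn8, Cldn3, Cldn10 and Cldn11) and 3.62% of all probe sets. The median difference of the 8 was -0.68 on the log2 scale, and that of all genes was 0.02. An exact two-sided permutation test of 3 against 3 arrays cannot go below p = 0.1, and it gave that value for each of the 5 claudins whose groups did not overlap.

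**Figure D1:**
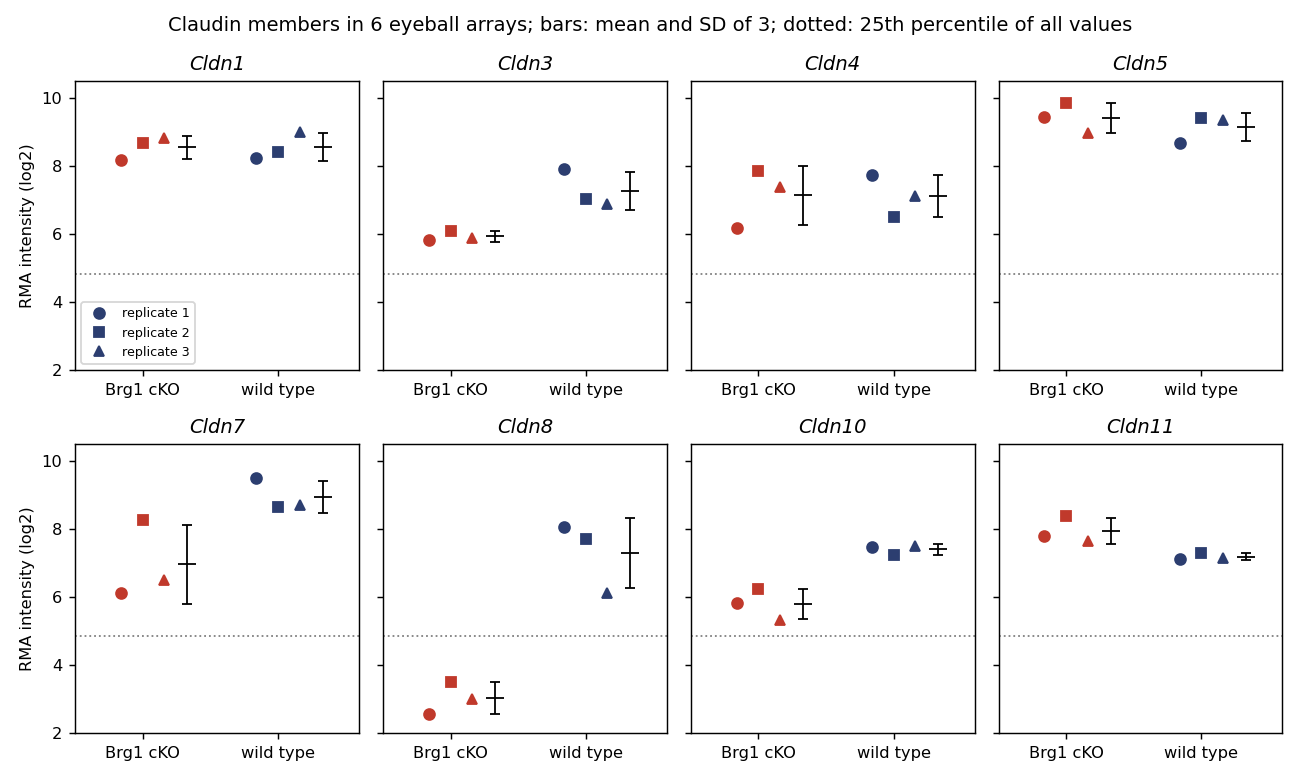
RMA intensity (log2, vertical axis) of each of the 8 claudins in 3 Brg1 cKO (red) and 3 wild-type (blue) eyeballs, with symbols for replicate numbers, bars giving the SD around each mean (n = 3), and a dotted line at the 25th percentile of all values. Cldn8 lies below that line in the 3 mutants at 2.55 to 3.50 and above it in the 3 wild-type eyeballs at 6.13 to 8.05.

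Cldn8 is a sealing claudin known from the collecting duct of the kidney and from other epithelia, where it is needed to bring Cldn4 to the tight junction. Its log2 intensity was 2.55, 3.50 and 3.0 in Brg1 cKO replicates 1 to 3, against 8.05, 7.69 and 6.13 in wild-type replicates 1 to 3. On the linear scale these were 5.87, 11.3 and 8.0 in Brg1 cKO, against 264.6, 207.2 and 69.8 in wild-type eyeballs. All mutant values lay under log2 4.84, the 25th percentile of all values and here taken as the low end of the scale, while wild-type values were spread over a wider range with replicate 3 the lowest. The means were 3.02 ± 0.47 in Brg1 cKO and 7.29 ± 1.02 in wild-type eyeballs (SD, n = 3 each). The difference was -4.27 (SE 0.50, 95% interval -5.46 to -3.09), a 19.3-fold lower intensity, with a limma adjusted p of 0.021. Since intensities at the low end carry little information on the RNA, the size of the fold is uncertain, and adding 32 to all intensities before the log2 gave -2.26 with an adjusted p of 0.22.

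The call on Cldn8 depended on single arrays, although its direction did not. Without Brg1 cKO replicate 1 or 3 its adjusted p was 0.0502 and 0.0900, and without wild-type replicate 1 or 2 it was 0.0922 and 0.106. Without Brg1 cKO replicate 2 or wild-type replicate 3 it remained past the threshold, at 0.0228 and 0.00905. Over these 6 fits the difference was between -4.85 and -3.89.

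Cldn10 encodes pore-forming claudins, one splice form of which is known to pass cations and another anions. Its probe set read 5.82, 6.22 and 5.33 in Brg1 cKO replicates 1 to 3, against 7.47, 7.22 and 7.49 in wild-type replicates 1 to 3. The wild-type arrays were close together, and the highest mutant was well below the lowest of them. Means were 5.79 ± 0.45 in Brg1 cKO and 7.39 ± 0.15 in wild-type eyeballs (SD, n = 3 each), a difference of -1.60 (SE 0.25, 95% interval -2.19 to -1.01), or 3.03-fold lower, which missed the threshold at a limma adjusted p of 0.0542. It passed without Brg1 cKO replicate 2 (adjusted p = 0.0216) and with arrays weighted by quality (0.0214). With any other single array left out it did not, at an adjusted p of 0.116 to 0.278, nor with the offset (0.133). The suffix of this probe set marks probes shared by several transcripts, which can come from different genes. Splice forms of Cldn10 were not separated.

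Cldn7 is an epithelial claudin also found along the lateral and basal membrane, where it binds the adhesion protein Epcam. It read 6.10, 8.27 and 6.49 in Brg1 cKO replicates 1 to 3, against 9.49, 8.63 and 8.70 in wild-type replicates 1 to 3. Replicate 2 of the mutants was near the wild-type values, and the other mutants were far below them. With means of 6.95 ± 1.16 in Brg1 cKO and 8.94 ± 0.48 in wild-type eyeballs (SD, n = 3 each), the difference was -1.98 (SE 0.56, 95% interval -3.29 to -0.68), or 3.96-fold lower, and did not pass (limma adjusted p = 0.316). Without Brg1 cKO replicate 2, the array that stood apart over all genes, it was -2.64 with an adjusted p of 0.0191. With any other single array left out it was between -2.14 and -1.56, with an adjusted p of 0.355 to 0.793.

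Cldn3 is a sealing claudin of many simple epithelia. Its values were 5.81, 6.10 and 5.87 in Brg1 cKO replicates 1 to 3, against 7.92, 7.02 and 6.89 in wild-type replicates 1 to 3. The 3 mutants lay close together below all wild-type eyeballs, with means of 5.93 ± 0.15 in Brg1 cKO and 7.28 ± 0.56 in wild-type eyeballs (SD, n = 3 each). The difference of -1.35 (SE 0.29, 95% interval -2.03 to -0.66), or 2.54-fold lower, did not pass (limma adjusted p = 0.164). All 4 probe sets naming Cldn3 lay below wild type without overlap, with differences of -1.62 to -1.01 and adjusted p from 0.0937 to 0.285. Probe sets of 1 gene read the same RNA and are not independent, and the suffix of some of them warns of probes that can match other sequences.

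Cldn4, a claudin of tight epithelia that lies on the same chromosome as Cldn3, read 6.18, 7.86 and 7.38 in Brg1 cKO replicates 1 to 3, against 7.74, 6.51 and 7.12 in wild-type replicates 1 to 3. Both genotypes covered the same range, and the arrays within each varied widely. The difference was 0.02 (SE 0.48, limma adjusted p = 0.997) with a 95% interval of -1.11 to 1.14, which leaves room for a fold of 0.465 to 2.20. The contrast of Cldn3 or Cldn8 with Cldn4 was not tested as a difference of its own. Cldn4 changed sign under another scaling, quantile normalization (-0.020), under array weights (-0.073) and when Brg1 cKO replicate 2 or 3 or wild-type replicate 2 was left out.

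Cldn1 is the claudin on which the barrier of the skin depends. It read 8.16, 8.67 and 8.82 in Brg1 cKO replicates 1 to 3, against 8.25, 8.42 and 9.02 in wild-type replicates 1 to 3. These values overlapped fully, and the difference was -0.01 (SE 0.27, 95% interval -0.65 to 0.62, limma adjusted p = 0.997). Its 3 other probe sets gave 0.15, 0.26 and 0.19, with mean log2 values under 4.84.

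Cldn5 is the principal claudin of vascular endothelium and of the blood-brain and blood-retina barriers. It read 9.44, 9.86 and 8.97 in Brg1 cKO replicates 1 to 3, against 8.69, 9.40 and 9.37 in wild-type replicates 1 to 3. The groups overlapped, with a difference of 0.27 (SE 0.30, 95% interval -0.43 to 0.96, limma adjusted p = 0.868). Of 18 endothelial markers, among them the endothelial cadherin Cdh5 (0.48, adjusted p = 0.779) and the receptor Kdr (-0.14, adjusted p = 0.921), 0 passed the test (0 at an unadjusted p under 0.05) and 13 had a higher mean in Brg1 cKO, with a median difference of 0.42. Their summed intensity was 14431 to 18210 in Brg1 cKO and 15840 to 16378 in wild-type eyeballs. Over all probe sets, 0.508% passed the test and 8.4% had an unadjusted p under 0.05.

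Cldn11 forms the strands between the layers of central myelin made by oligodendrocytes. It read 7.79, 8.37 and 7.63 in Brg1 cKO replicates 1 to 3, against 7.10, 7.29 and 7.13 in wild-type replicates 1 to 3. All mutants were above all wild-type eyeballs, and replicate 2 was the highest of the mutants. The means were 7.93 ± 0.39 in Brg1 cKO and 7.17 ± 0.10 in wild-type eyeballs (SD, n = 3 each), a difference of 0.76 (SE 0.23, 95% interval 0.22 to 1.29) that did not pass (limma adjusted p = 0.377). Among 8 measured genes of oligodendrocytes and myelin 0 passed (0 at an unadjusted p under 0.05), the median difference was -0.05, and 4 were under log2 4.84 in all arrays, with the myelin proteins Mog and Mag at 1.99 to 3.39. The summed intensity of these genes was 3298 to 4113 in Brg1 cKO and 3475 to 3918 in wild-type eyeballs. Beside these counts, 0.508% of all probe sets passed the test and 8.4% had an unadjusted p under 0.05.

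**Figure D2:**
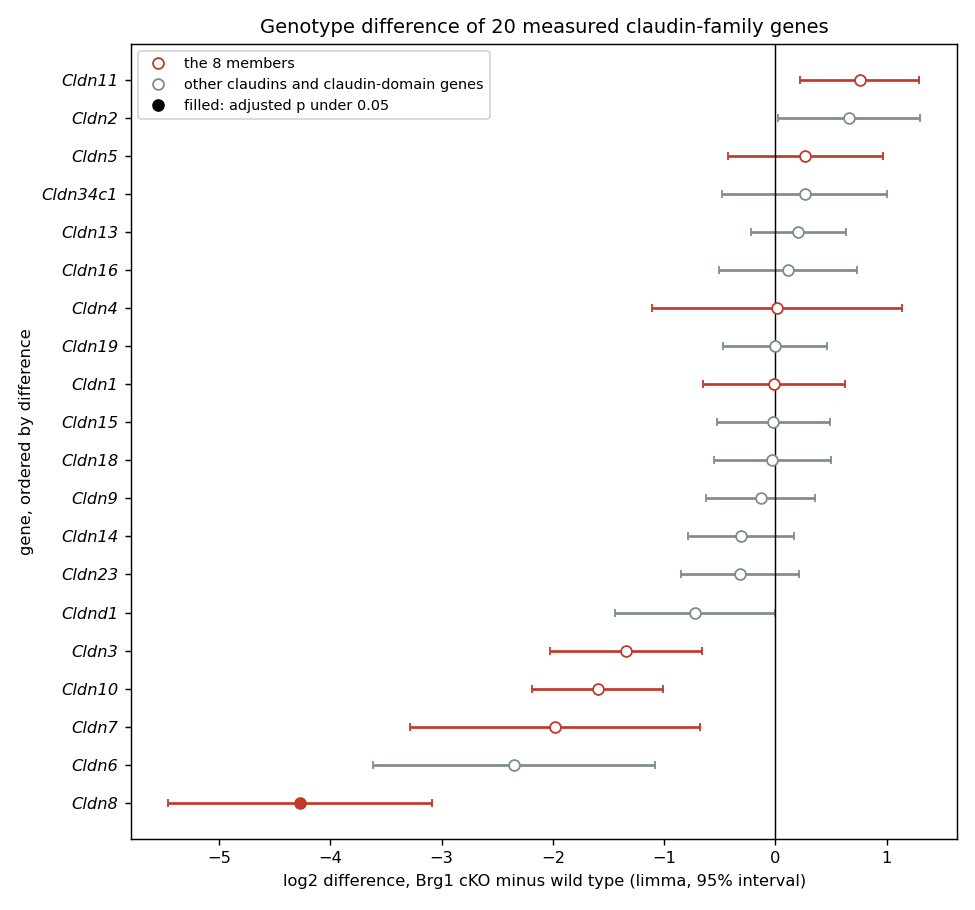
Log2 difference, Brg1 cKO minus wild type (horizontal axis, with the 95% interval of the limma fit), for the 8 members in red and 12 other claudins and claudin-domain genes in grey, with a filled point for an adjusted p under 0.05. Cldn8 at -4.27 is the one filled point, and the intervals of Cldn1, Cldn4 and Cldn5 span 0.

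Of 22 further claudin and claudin-domain genes listed, 12 were measured and the others were not analysed here. None of the 12 passed the test in limma, beside 0.508% of all probe sets. At an unadjusted p under 0.05, 1 was lower and 1 higher, beside 3.87% and 4.53% of all probe sets. In all arrays 7 were under log2 4.84. The median difference of the 12 was -0.02. Cldn6, a claudin of embryonic epithelia, read 3.80, 5.28 and 4.64 in Brg1 cKO replicates 1 to 3, against 7.96, 6.06 and 6.75 in wild-type replicates 1 to 3. Its groups did not overlap, as in Cldn7 and Cldn8, and the difference of -2.35 (SE 0.54, 95% interval -3.62 to -1.09) had an adjusted p of 0.193. Cldn2, which forms cation pores, differed by 0.66 (SE 0.27, adjusted p = 0.583) with overlapping groups. Cldn19, the main claudin of the retinal pigment epithelium in human cells, was at 2.25 to 2.77 in all arrays, too low on the scale to be read.

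Among the proteins that stand beside claudins in the junction no gene passed the test, beside 0.508% of all probe sets. At an unadjusted p under 0.05, 8.4% of all probe sets were called. Counts near these shares, as here, are no result about these genes. Of 20 listed strand partners, membrane proteins such as occludin, tricellulin and the junctional adhesion molecules, 17 were measured and 0 passed (1 at an unadjusted p under 0.05), 11 had a lower mean in Brg1 cKO, and the median difference was -0.10. The smallest p values belonged to Ildr1, a protein of tricellular junctions (-0.58, SE 0.18, adjusted p = 0.397, under log2 4.84 in all arrays), and to the claudin-domain protein Cldnd1 (-0.72, SE 0.31, adjusted p = 0.594). Cldnd1 is also counted among the further claudin and claudin-domain genes above, so these lists are not independent. Of 29 listed proteins of the cytoplasmic plaque, the scaffold that ties claudins to actin, 22 were measured and 0 passed (1 at an unadjusted p under 0.05), 11 had lower means, and the median was -0.01. Tjp1, the scaffold ZO-1, averaged 11.23 ± 0.21 in Brg1 cKO and 11.76 ± 0.10 in wild-type eyeballs (SD, n = 3 each), without overlap. This difference of -0.53 (SE 0.18) did not pass (adjusted p = 0.462), nor did that of the scaffold Magi3 (-0.54, SE 0.25, adjusted p = 0.638).

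Of 33 listed epithelial junction neighbours, a list of cell adhesion genes, proteases and transcription factors of epithelia, 30 were measured. The list was chosen with earlier results of these data known, so its counts are a description and no test of the list. In this list 3 genes passed the test, all lower in Brg1 cKO, beside 0.203% of all probe sets called lower. Means were lower for 26 of 30, beside 5839 of all 12393 genes, and the median difference was -0.63. Below wild type without overlap lay 18, beside 6.44% of all probe sets. At an unadjusted p under 0.05, 19 were lower and 1 higher, beside 3.87% and 4.53% of all probe sets. The 3 genes that passed are transcription factors, and they do not act in the junction itself. Ehf, an ETS factor of epithelial differentiation, read 5.86, 6.30 and 6.89 in Brg1 cKO replicates 1 to 3, against 10.83, 10.05 and 9.82 in wild-type replicates 1 to 3 (difference -3.88, SE 0.35, limma adjusted p = 0.0075). Elf5, an ETS factor of glandular and surface epithelia, read 3.26, 3.53 and 3.39 in Brg1 cKO, under log2 4.84, against 7.06, 6.16 and 5.55 in wild-type eyeballs (difference -2.86, SE 0.36, adjusted p = 0.025). Another probe set of Elf5 was also lower, by -2.12 (SE 0.52), but did not pass (adjusted p = 0.222). Tfcp2l1, a factor of duct epithelia such as the kidney collecting duct, read 4.65, 6.28 and 5.15 in Brg1 cKO, against 8.63, 8.39 and 7.86 in wild-type eyeballs (difference -2.94, SE 0.42, adjusted p = 0.039). Ehf passed in all 6 fits with a single array left out (adjusted p of 0.0131 to 0.0470). Elf5 passed without Brg1 cKO replicate 2 or wild-type replicate 3 and missed the threshold in the other 4 fits (0.0556 to 0.119). Tfcp2l1 passed without Brg1 cKO replicate 2 and missed it in the other 5 (0.0657 to 0.218). With the offset of 32, the 3 genes had adjusted p of 0.0680 (Ehf), 0.278 (Elf5) and 0.133 (Tfcp2l1), and none passed.

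**Figure D3:**
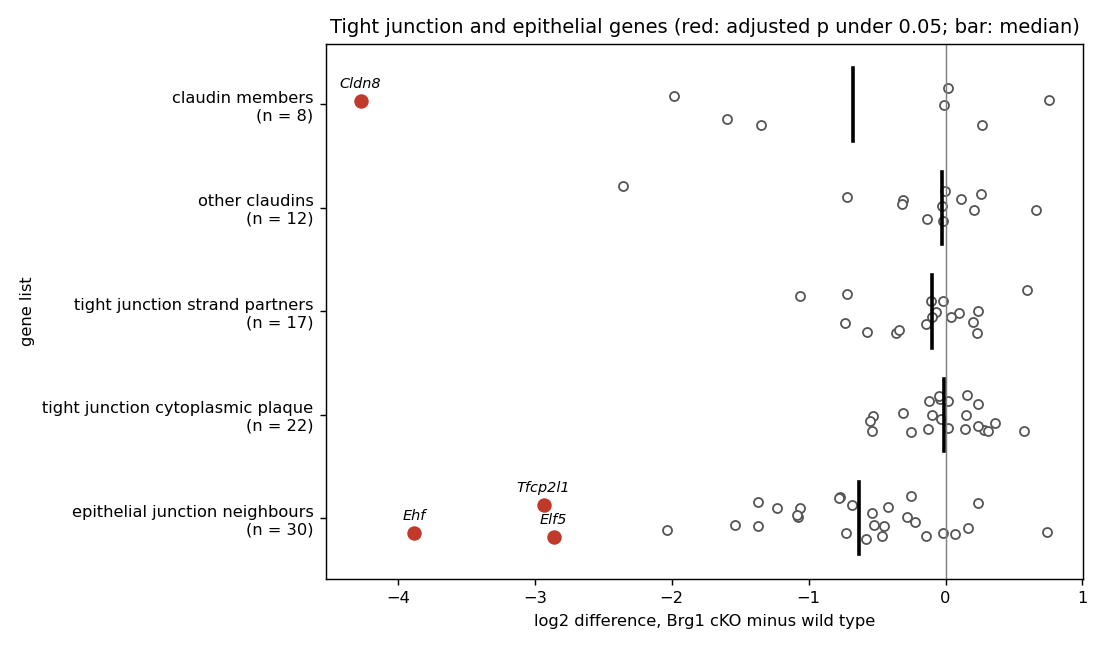
Log2 difference, Brg1 cKO minus wild type (horizontal axis), of each measured gene in 5 lists, 1 point per gene, with red points for an adjusted p under 0.05 and a bar at the median. The medians are -0.68 for the claudin members and -0.63 for the epithelial junction neighbours, and -0.02, -0.10 and -0.01 for the other claudins, the strand partners and the plaque.

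Of 14 measured markers of surface and gland epithelium, which include Epcam, Cdh1 and Trp63 of the list above, 1 passed the test, Krt12. Among all probe sets, 0.203% were called lower. This list too was chosen with earlier results of these data known. The mean was lower in Brg1 cKO for 10 and higher for 4, 8 lay below wild type without overlap (beside 6.44% of all probe sets), and the median difference was -1.07. Their summed intensity was 12573 to 25568 in Brg1 cKO and 25052 to 30028 in wild-type eyeballs. Krt12, the keratin of corneal epithelium, differed by -3.71 (SE 0.25, limma adjusted p = 0.0019), whereas Epcam (-1.08, SE 0.40, adjusted p = 0.517) and the epithelial cadherin Cdh1 (-1.06, SE 0.39, adjusted p = 0.508) were below all wild-type arrays without passing. The basal keratin Krt14 was above wild type in all mutants (0.87, SE 0.26, adjusted p = 0.383), and its partner Krt5 overlapped (-0.02, adjusted p = 0.993). In whole eyeballs, fewer cells of a type and less RNA per cell cannot be told apart, and the part that the amount of epithelium has in the claudin values was not tested.

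Several of these genes were least low in Brg1 cKO replicate 2, though not all. Relative to the wild-type mean, Cldn7 was at -2.84, -0.67 and -2.45 in Brg1 cKO replicates 1 to 3, and the median epithelial marker was at -1.63, -0.48 and -0.81. Trp63 instead was least low in replicate 3, at -3.02, -2.18 and -0.90. Like Cldn7, Cldn8 was least low in replicate 2, at -4.74, -3.79 and -4.29, but it was low in all 3. The markers of lens fibers, the cells that fill the lens, were also shifted least in replicate 2, by medians of -2.59, -0.91 and -3.33, and all 8 were below wild type without overlap, beside 6.44% of all probe sets, although 1 of the 8 passed the test.

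**Figure D4:**
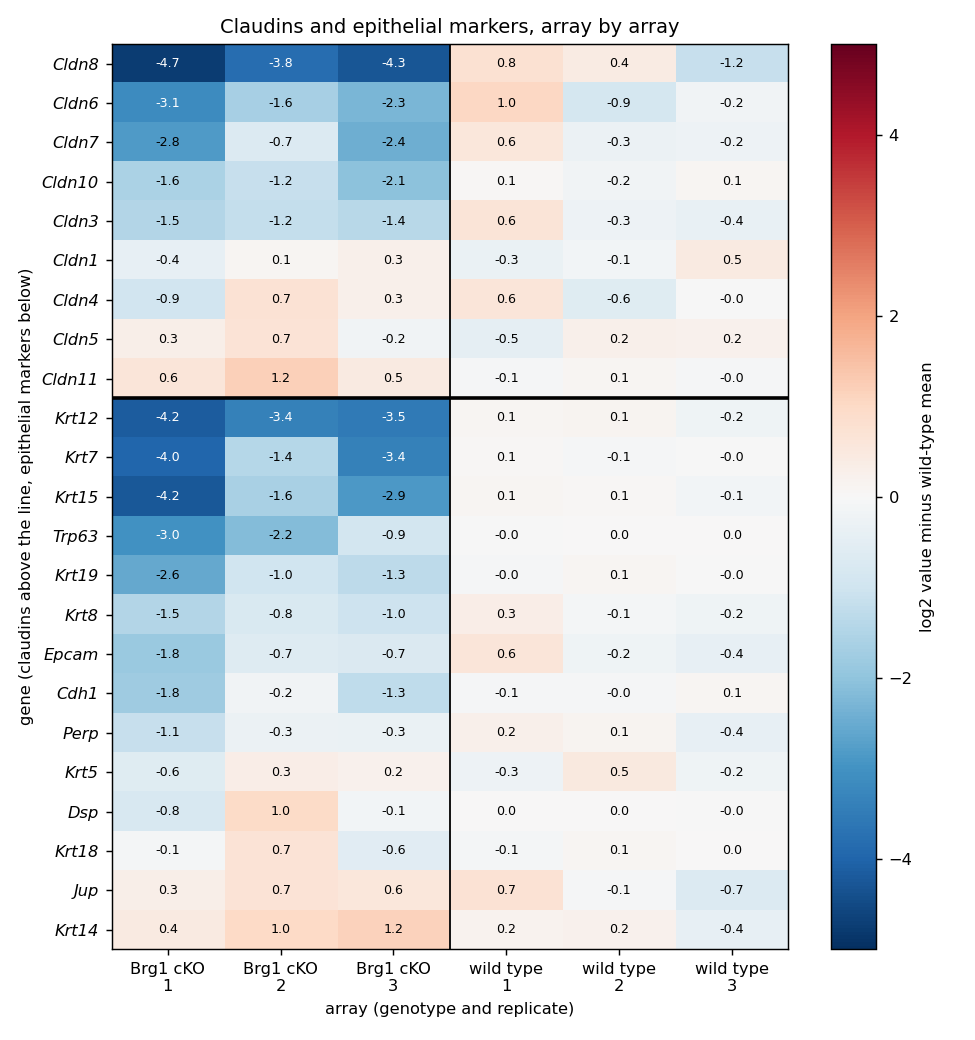
Log2 value minus the wild-type mean, coloured and printed in each cell, for 9 claudins (above the line) and 14 epithelial markers (below it) in each of the 6 arrays, with the 3 Brg1 cKO arrays on the left. Cldn8 and Krt12 are low in all 3 mutants and least low in Brg1 cKO replicate 2, as are Cldn6, Cldn7, Krt7 and Krt15. Trp63 is least low in Brg1 cKO replicate 3.

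The 3 genes outside the family whose pattern over the 6 arrays was most like that of Cldn8 were Sfrp1, a secreted inhibitor of Wnt signalling (Pearson r = 0.994), Elf5 (r = 0.989) and Mboat1, an enzyme that remodels phospholipids (r = 0.988). Sfrp1 was at 10.40 to 10.44 in Brg1 cKO and 11.09 to 11.61 in wild-type eyeballs (difference -0.96, SE 0.19, limma adjusted p = 0.123), and Mboat1 differed by -0.82 (SE 0.17, adjusted p = 0.147). Of 12373 genes compared, 175 had r over 0.9. These correlations are a description over 6 arrays that fall into 2 genotypes, so that any gene that separates them scores high.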

How the data were processed

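RNA of 6 eyeballs was measured on Affymetrix mouse arrays, 1 array per sample, after amplification of 50 ng of RNA with the NuGEN Ovation system per the labels. The authors processed the arrays with RMA, which corrects background, equalises the arrays and summarises each probe set (version not given in the sources used here). As deposited, the values were linear intensities, and log2 was taken here. The equalising step compresses global differences, and dim probe sets understate folds. The table held no detection calls, so the 25th percentile of all values, log2 4.84, served as the low end.

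Of 22690 rows, 64 array controls were left out. The platform annotation, which can be old, gave 1 gene to 20380 probe sets, several to 691 and none to 1555. Groups and replicate numbers came from the labels. Each of 22626 probe sets was tested with limma 3.58.1 in R 4.3.3 (two-sided, genotype as the only term, Benjamini-Hochberg over all probe sets), and all adjusted p-values come from this model. Differences are Brg1 cKO minus wild type. The fit was tested on simulated data. Genes named are the 8 members, Smarca4, those past the threshold in each junction list or otherwise the 2 with the smallest p, and the 3 genes most like a member past the threshold. A few further claudins, markers and scaffolds were named after their values were seen. The members and lists were chosen with earlier results of these data known. By the study's methods the samples are individual eyeballs, with littermates as controls. The limma p-values set the genotype difference against the spread between these samples, and that spread is estimated with help from all probe sets. The alternatives were another normalization, an offset, a filter on dim probe sets, array weights, another prior, template matching after the study's rule (p under 0.05 and a fold over 1.5), other probe sets, a replicate block and leaving out each array.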

Additional observations from a re-analysis of the deposited data

How the results depend on the processing

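Cldn8, Cldn7, Cldn10 and Cldn3 kept their lower direction and Cldn11 its higher one under all alternatives run. The number of claudins past the threshold, 1 of 8, was 0 with an offset of 32 or with a replicate block, 2 with array weights (Cldn8 and Cldn10), 4 by template matching with no adjustment for multiple testing (Cldn8, Cldn3, Cldn10 and Cldn11), and 0 to 3 when 1 array was left out, the 3 being Cldn8, Cldn7 and Cldn10 without Brg1 cKO replicate 2. Among all probe sets 115 passed, against 16 with the offset, 190 with array weights, 820 by template matching, 45 with the replicate block and 24 to 216 with 1 array left out. Other claudins past the threshold were 1 by template matching (Cldn6). Epithelial junction neighbours past it, 3 in the report, were 0 with the offset, 7 by template matching, 0 with the replicate block (Ehf 0.0530, Elf5 0.0711 and Tfcp2l1 0.0815, adjusted p) and 1 to 4 with 1 array left out. Cldn4 changed sign under quantile normalization (-0.020), under array weights (-0.073) and with single arrays left out (-0.34 to 0.50). Cldn1 did so on its 3 other probe sets (0.15, 0.26 and 0.19) and with single arrays left out (-0.17 to 0.21). The cause of these changes was not tested.

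Same-numbered samples correlated at 0.0597, 0.0820 and 0.125 in their deviations from the group means. Differently numbered samples correlated at -0.313 to 0.231. So few values cannot decide whether the numbers pair pups, and the block was run as an alternative. In the replicate block Cldn8 had an adjusted p of 0.0568. Of all fits of single genes under alternatives, 256 stayed on their side of the threshold, 41 no longer passed it, 9 newly passed it and 10 turned the sign. Signal at the low end of the scale limits what can be read of Cldn8 in the mutants and of 7 other claudins in all arrays.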

Other observations

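Markers of further cell types of the eyeball were read in the same arrays. Their lists were also chosen with earlier results of these data known, so the counts are a description. Macrophage and neutrophil genes had higher means in Brg1 cKO for 10 of 10 measured, with a median difference of 1.65 and a summed intensity of 9207 to 27636 in Brg1 cKO and 1383 to 1769 in wild-type eyeballs. Among all 12393 genes, 6554 had higher means. Past the limma test as higher were 3 of the 10, beside 0.305% of all probe sets. They were Cd14, a receptor for bacterial lipopolysaccharide (5.92, adjusted p = 0.0082), and S100a9 and S100a8, the subunits of the neutrophil protein calprotectin (4.55, adjusted p = 0.0094, and 4.99, adjusted p = 0.018). These 3 calls were lost with the offset of 32 (adjusted p of 0.0899 to 0.125), without wild-type replicate 1 (0.0714 to 0.0725) and without wild-type replicate 2 (0.0564 to 0.0856), and that of S100a8 also without Brg1 cKO replicate 3 (0.0509) or wild-type replicate 3 (0.0992) and with the replicate block (0.0815). S100a9 missed the threshold in the replicate block too (0.0530). Of the lens fiber genes 1 passed, the gap junction gene Gja3 (-3.15, adjusted p = 0.032), which passed without Brg1 cKO replicate 2 and missed the threshold with any other single array left out (0.0559 to 0.188), with the offset (0.108) and with the replicate block (0.1001). The median of the 8 lens genes measured was -2.27, and 0.203% of all probe sets were called lower.

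No gene passed among 8 of the retinal pigment epithelium and melanocytes (median difference 0.10), 8 of the neural retina (0.12), 10 of fibroblasts and sclera (-0.35) and 10 of skeletal muscle (0.21). At an unadjusted p under 0.05 there were 0, 1, 1 and 0 such genes in these lists, beside 8.4% of all probe sets. The test itself was passed by 0.508% of all probe sets. The muscle genes had a summed intensity of 24341 to 58452 in Brg1 cKO and 31006 to 49221 in wild-type eyeballs.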
